A study of Mus musculus with 4 samples.

Results

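Wnt signalling genes were compared in PSC-derived SG placodes and in mouse submandibular glands (SMGs) of E12.5. The gene set was a list of 58 symbols that covered the Wnt ligands and their receptors, the proteins that raise or block ligand action outside the cell, and the transcription factors and feedback genes inside it. A gene entered the set where its symbol in the expression table was the same as a listed one, and all 58 were found among 24771 features. They were sorted by biochemical role into 6 classes of 19 ligands, 10 Frizzled receptors, 5 co-receptors and receptor turnover proteins, 7 R-spondins and R-spondin receptors, 10 secreted inhibitors, and 7 TCF factors and feedback genes.

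RNA-seq had been performed on 2 samples of PSC-derived SG placodes and on 2 samples of E12.5 SMGs. The placodes were aggregates of a single line of mouse embryonic stem cells, seeded at 3000 cells per well and kept with 2% Matrigel. They received BMP4 at 2 ng/ml on day 3, retinoic acid (RA) at 1 μM together with bFGF at 25 ng/ml on day 4 and FGF10 at 200 ng/ml on day 6, and were harvested on day 10. Before differentiation the stem cells had been maintained with CHIR99021, an inhibitor of GSK3 that activates β-catenin signalling, and PD325901, an inhibitor of MEK. The SMGs were tissue of mouse embryos at E12.5, and no agent is described for them, although the labels repeat the stem cell culture protocol for every sample. The strain of the embryos and the way the glands were freed from the surrounding tissue are not given in the sources used here, so the share of epithelium and mesenchyme in the SMG samples is not known. Nothing in the sources states that the samples of a group came from separate cultures or litters, and p-values therefore measure the spread between these samples, which may be technical.

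Wnt proteins are secreted, lipid-carrying signals that bind a Frizzled receptor together with the co-receptor Lrp5 or Lrp6. In the canonical branch this contact protects β-catenin from destruction, and β-catenin then acts with TCF and LEF factors on target genes, several of which feed back on the pathway. R-spondins, bound by Lgr receptors, prolong the life of Frizzled receptors at the membrane by removing the ubiquitin ligases Znrf3 and Rnf43, whereas secreted Frizzled-related proteins, Dickkopf proteins, Wif1 and Notum limit the signal. In the developing SMG, Wnt signals are known from the mesenchyme as well as from the epithelium, where β-catenin signalling has been tied to duct formation.

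The lipid is attached to a serine that sits in a short stretch shared by the family, and this stretch was read for the ligands with the highest mean FPKM in either group. Each line gives 8 codons of coding sequence, 24 bases from 5′ to 3′ on the strand of the gene, with the codon of that serine in capitals. The coordinates are those of GRCm38, and each window lies in a single coding exon. The first 3 ligands had the highest mean FPKM of the class in the placodes and the last 3 had the highest in the SMGs, where Wnt11 was above Wnt2b and Wnt5b in sample 1.
Wnt7b, chr15:85537812-85537835, minus strand: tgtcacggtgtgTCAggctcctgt
Wnt7a, chr6:91366272-91366295, minus strand: tgccatggtgtgTCAggctcctgt
Wnt5a, chr14:28522515-28522538, plus strand: tgtcatggagtgTCTggctcctgt
Wnt6, chr1:74784172-74784195, plus strand: tgccatgggcttTCGggttcctgc
Wnt2b, chr3:104951220-104951243, minus strand: tgtcacggtgtgAGTggctcctgt
Wnt5b, chr6:119433800-119433823, minus strand: tgtcacggagtcTCCgggtcctgc
The stretch was found exactly 1 time in the coding sequence of each of the 19 ligands. The Wnt7a window had 22 of its 24 bases in common with the Wnt7b window, those of Wnt5a and Wnt2b had 21, that of Wnt5b had 19 and that of Wnt6 had 16. The serine was encoded by codon 206 in both Wnt7a and Wnt7b. The codon itself was TCA in the Wnt7 pair, TCT in Wnt5a, AGT in Wnt2b, TCC in Wnt5b and TCG in Wnt6.

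Related members are similar enough in sequence to ask whether reads could be assigned to the wrong gene. Over aligned coding sequence, Wnt7a and Wnt7b were identical at 76.8% of bases. Runs were sought over a whole transcript of each gene, with its untranslated parts, and their longest identical run was 23 bases. Wnt5a and Wnt5b were identical at 78.2%, with a longest run of 29 bases. The longest run of any pair within a class was 47 bases, found between Fzd1 and Fzd2, which were identical at 82.0%, and between Fzd1 and Fzd7. How the authors treated reads that match more than 1 gene is not given in the sources used here. Of the 58 genes, 11 share exon bases with a gene on the opposite strand. They are Wnt5a, Wnt7b, Wnt11, Fzd5, Fzd6, Rspo3, Sfrp2, Notum, Lef1, Tcf7l1 and Axin2. Counting by strand is not stated, so reads from the shared bases cannot be told apart. The opposite-strand genes had no entry under their identifiers in the deposited FPKM.

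Expression was deposited as FPKM, the fragments of a gene divided by the length of its transcript and by the mapped fragments of the sample, so that levels of different genes can be set side by side. FPKM values summed to between 361963 and 384773 per sample, between 12636 and 12807 features had at least 1 FPKM, and log2(FPKM + 1) correlated at r = 0.994 between the placode samples and at r = 0.992 between the SMG samples, across features. The mitochondrial share of FPKM was 5.93% and 5.88% in placode samples and 10.7% and 8.07% in SMG samples, and the part of this difference in the results was not tested. Sequencing depth is unknown, so no lower limit of detection is given. Differences were tested as log2(FPKM + 1) with limma over the 13193 features with a mean of at least 1 FPKM, with Benjamini-Hochberg adjustment over all of these. A log2 fold change below is a difference of group means on this scale, placode minus SMG, and understates the ratio of low values, so ratios of mean FPKM are given as well. Values are written in the order sample 1, sample 2. The labels name no batch, and a batch that follows the groups cannot be told apart from them.

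Marker genes of the cell types that the samples could hold differed between the groups. Over all tested features, 14.1% were higher in the placodes by 2-fold or more with an adjusted p below 0.05, and 15.2% were lower. Of 10 epithelial markers, 7 fell short of the SMGs by 2-fold or more. All 10 together summed to 73.4 and 80.2 FPKM in the placodes against 635 and 604 FPKM in the SMGs. Krt5, Krt14 and Krt15 had no FPKM above 0 in the placodes, Trp63 was at 0.0286 and 0.0262 FPKM against 13.6 and 13.2 FPKM, and Cdh1 was at 1.11 and 1.18 FPKM against 28.2 and 24.7 FPKM. Krt8, Krt18 and Krt19, which supplied most of the placode sum, were at similar or higher values in the placodes. Krt8 was at 34.4 and 35.6 FPKM against 36.1 and 28.3 FPKM, and Krt18 was at 20.8 and 24.5 FPKM against 20.0 and 15.4 FPKM. Krt19 was at 14.7 and 15.8 FPKM against 9.78 and 6.53 FPKM. Each of the 9 mesenchymal markers was also lower by 2-fold or more, with sums of 218 and 215 FPKM against 2127 and 2075 FPKM. Each of the 6 markers of neural progenitors and the 5 of neurons exceeded the SMGs by 2-fold or more, with sums of 699 and 732 FPKM against 51.1 and 45.4 FPKM for the former and 797 and 825 FPKM against 82.4 and 74.1 FPKM for the latter. Pax6, a regulator of the neural tube and eye, was at 40.7 and 42.2 FPKM in the placodes and at 0.1 and 0 FPKM in the SMGs. Of the 8 markers of the roof plate and dorsal neural tube, 3 were tested (Pax3, Pax7 and Olig3) and each exceeded the SMGs by 2-fold or more. Of the untested ones, Msx2 and Zic1 had both placode values above both SMG values, Msx1 had them below, at 0.934 and 0.536 FPKM against 1.09 and 1.42 FPKM, and Gdf7 and Lmx1a overlapped. The 8 summed to 40.2 and 38.6 FPKM in the placodes against 3.68 and 3.44 FPKM. The summed endothelial markers were at 9.72 and 9.11 FPKM in the placodes and at 88.2 and 94.2 FPKM in the SMGs, those of blood at 0.0258 and 0.131 FPKM against 2443 and 2379 FPKM, those of leukocytes at 2.45 and 2.95 FPKM against 7.05 and 6.19 FPKM, and those of skeletal muscle at 0 and 0.0648 FPKM against 39.7 and 28.7 FPKM. Most of the endothelial sum in the placodes was Cdh5, at 8.07 and 7.60 FPKM against 30.3 and 35.4 FPKM. Pecam1, Kdr and Tek were each below 1 FPKM in both placode samples, with Pecam1 at 30.6 and 31.2 FPKM, Kdr at 20.0 and 20.8 FPKM and Tek at 7.23 and 6.90 FPKM in the SMGs. The 4 floor plate markers summed to 80.0 and 78.9 FPKM in the placodes against 6.65 and 5.73 FPKM, whereas the 3 pluripotency markers summed to less than 1 FPKM in every sample. The part of these cell types in the Wnt gene differences was not tested, and in bulk RNA fewer cells of a type and less RNA per cell cannot be told apart.

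Of the 58 genes, 42 passed the minimum level and were tested, and 16 did not and are given by their values. The mean was at least 1 FPKM in both groups for 34 of the tested genes, in the placodes alone for 2 (Wnt7a and Rspo1) and in the SMGs alone for 6 (Wnt2, Wnt2b, Wnt6, Fzd5, Rnf43 and Rspo2). Genes of the latter kinds had to differ to be tested, and counts over the tested genes are a description. Of the tested genes, 37 passed an adjusted p of 0.05, while 76.2% of all tested features did. There were 11 higher in the placodes, where the share of all features was 35.7%, and 26 lower, where it was 40.4%. At a fold of at least 2 there were 25, against 29.4% of all features, with 10 higher against 14.1% and 15 lower against 15.2%. Among the 34 genes with both group means at or above 1 FPKM, 18 passed at 2-fold, against 21.9% of the 11475 features that met the same condition. The median absolute log2 fold change was 1.53 over the 42 tested genes and 0.55 over all tested features, and among those with both group means at or above 1 FPKM it was 1.47 and 0.47. Placode and SMG values were fully separate in 41 of the 42 tested genes, the exception being Fzd9, and did not overlap in 88.4% of all tested features.

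**Figure D1:**
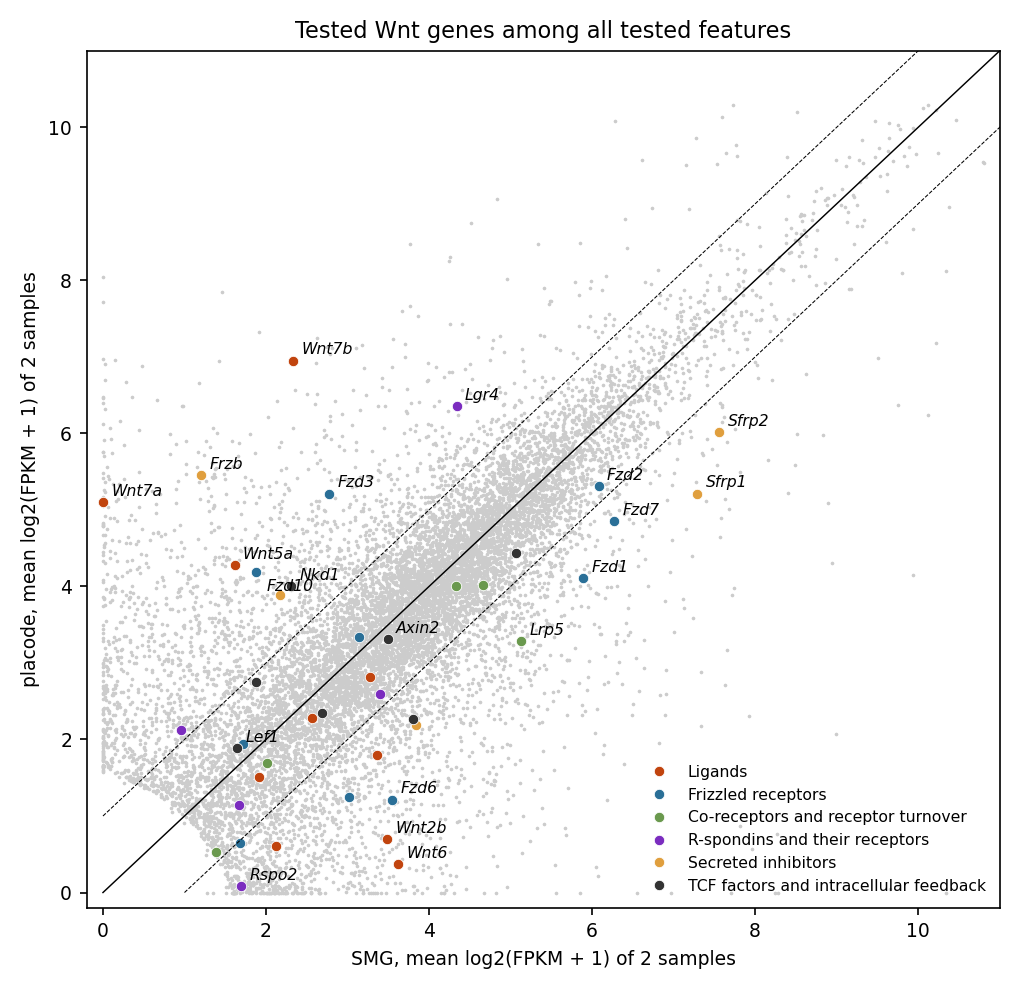
Mean log2(FPKM + 1) of the 2 placode samples (vertical axis) against that of the 2 SMG samples (horizontal axis) for the 42 tested Wnt genes, coloured by class, over all 13193 tested features in grey, with the line of equal values solid and the 2-fold lines dashed. Wnt7b, Wnt7a, Frzb, Wnt5a, Fzd3, Fzd10, Nkd1 and Lgr4 lie above the upper 2-fold line, Wnt6, Wnt2b, Fzd6, Sfrp1 and Lrp5 lie below the lower one, and Axin2 and Lef1 lie near the line of equal values.

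The placodes and the SMGs had different leading ligands. Wnt7b, Wnt7a and Wnt5a made up 91.0% and 91.5% of the summed ligand FPKM in the placodes and 10.0% and 10.2% in the SMGs. Wnt6, Wnt2b, Wnt5b and Wnt11 made up 64.6% and 67.5% in the SMGs and 5.10% and 4.81% in the placodes. These groupings were formed after the values had been seen. The 19 ligands together summed to 191 FPKM in both placode samples and to 61.9 and 58.5 FPKM in the SMGs, a ratio of 3.18, and an exact two-sided permutation test of the sums gave p = 0.333, the smallest that 2 samples against 2 allow. Without the 3 leading placode ligands the order of the sums was the opposite, at 17.1 and 16.3 FPKM against 55.7 and 52.5 FPKM.

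Wnt7b, a ligand of lung, kidney and neural development, had the highest ligand level in the placodes. It stood at 123 and 123 FPKM in the placodes and at 4.07 and 3.99 FPKM in the SMGs. The samples of each group lay close together and far from those of the other. The log2 fold change was 4.62 (SE 0.05, adjusted p = 8.47e-08), and mean FPKM was 30.5-fold higher in the placodes. The gene lies at chr15:85535437-85582473 of GRCm38 and shares exon bases with AU022754 on the other strand. Its paralogue Wnt7a, known for dorsal patterning of the limb and for roles in the nervous system, was at 33.5 and 33.0 FPKM in the placodes and at 0 in both SMG samples (adjusted p = 2.04e-07). No fold is given against a group at 0. Wnt5a, the best studied ligand of the branch that does not use β-catenin, was at 17.99 and 18.8 FPKM against 2.12 and 2.00 FPKM. Its values in the placodes were all above those in the SMGs, with a log2 fold change of 2.66 (SE 0.08, adjusted p = 1.13e-06) and a ratio of 8.94.

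Among the ligands that were lower in the placodes, Wnt6, a ligand of ectodermal and other epithelia, had the highest mean FPKM in the SMGs, above Wnt2b in sample 1 and below it in sample 2. It was at 0.263 and 0.316 FPKM in the placodes and 12.98 and 9.87 FPKM in the SMGs. The SMG samples differed from each other by more than the placode samples did but stayed far above them. The log2 fold change was -3.26 (SE 0.14, adjusted p = 4.64e-06), mean FPKM was 39.4-fold higher in the SMGs, and with a pseudocount of 0.001 in place of 1 the log2 fold change was -5.29. Wnt2b, which with Wnt2 specifies the lung from the foregut, was at 0.631 and 0.618 FPKM against 8.81 and 11.8 FPKM. Its log2 fold change was -2.78 (SE 0.14, adjusted p = 9.20e-06), and the groups did not overlap. Wnt5b, the paralogue of Wnt5a, was at 2.73 and 2.26 FPKM against 8.76 and 9.82 FPKM. It therefore differed in the direction opposite to Wnt5a, with a log2 fold change of -1.56 (SE 0.11, adjusted p = 3.54e-05). Wnt2 was at 0.561 and 0.476 FPKM against 3.96 and 2.79 FPKM, a log2 fold change of -1.51 (adjusted p = 0.000190).

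Smaller differences were found for the ligands of middle level. Wnt11, a ligand of cell movement and kidney branching, was at 6.12 and 6.00 FPKM in the placodes and 9.38 and 8.07 FPKM in the SMGs, giving a log2 fold change of -0.46 (adjusted p = 0.00479), and the adjusted p was 0.0509 without placode sample 2. Wnt9a, known from joint formation, was at 2.20 and 1.54 FPKM against 2.76 and 2.80 FPKM, with a log2 fold change of -0.41 and an adjusted p of 0.0357. That call was lost on leaving out placode sample 2, SMG sample 1 or SMG sample 2, with adjusted p-values of 0.131, 0.120 and 0.131, and the log2 fold change was -0.24 without placode sample 2. Wnt4, which drives the formation of kidney tubules, was at 3.55 and 4.15 FPKM against 5.24 and 4.58 FPKM, and its log2 fold change of -0.28 did not pass (95% confidence interval -0.56 to -0.01, adjusted p = 0.0572). Both Wnt4 values of the placodes were below both values of the SMGs.

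**Figure D2:**
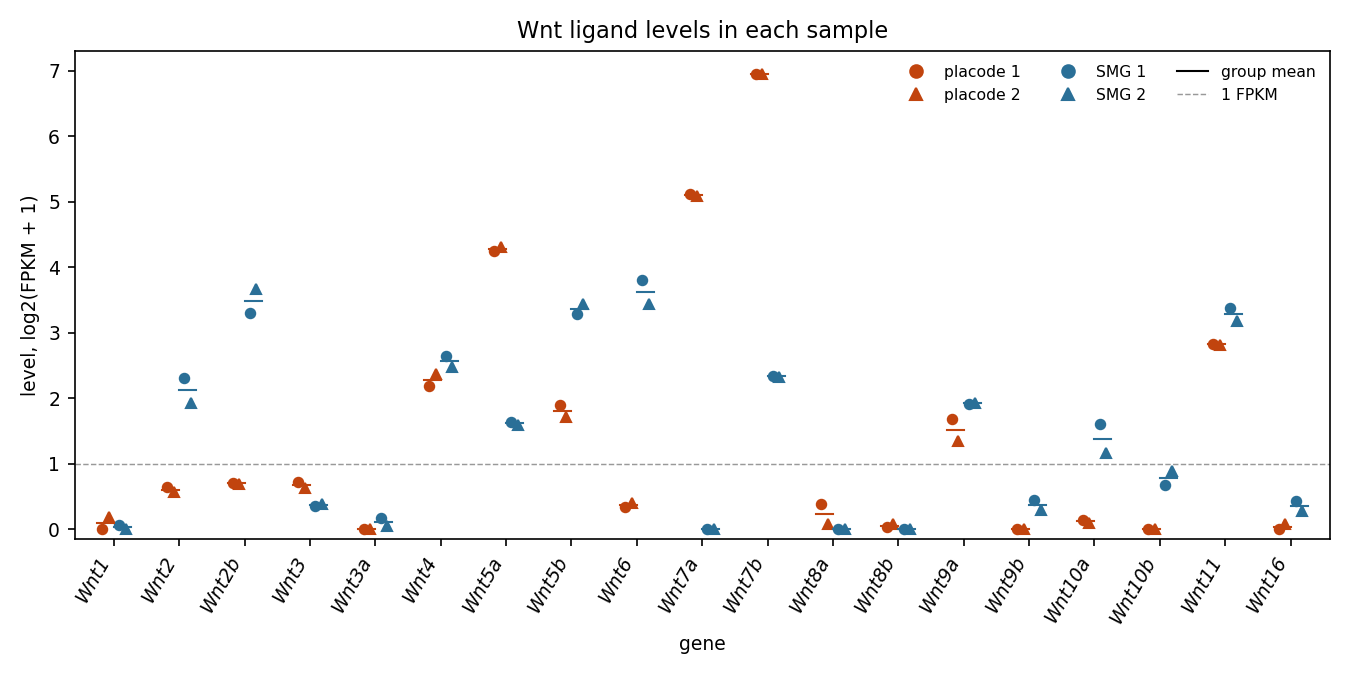
Levels of the 19 Wnt ligands as log2(FPKM + 1) in placode samples 1 and 2 and SMG samples 1 and 2, with group means as bars and 1 FPKM as a dashed line. Wnt7b, Wnt7a and Wnt5a stand far higher in both placode samples, and Wnt6, Wnt2b, Wnt5b and Wnt2 stand higher in both SMG samples.

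The 9 ligands that stayed below a mean of 1 FPKM were not tested. Wnt10a, a ligand of teeth, hair and other ectodermal organs, had the highest mean of them over all samples, at 0.0994 and 0.0721 FPKM in the placodes and 2.04 and 1.23 FPKM in the SMGs. Wnt10b was at 0 in both placode samples and at 0.598 and 0.843 FPKM in the SMGs, and Wnt3, a ligand of the primitive streak, was at 0.640 and 0.539 FPKM against 0.270 and 0.299 FPKM. Both Wnt10 genes had both SMG values above both placode values, and Wnt3 had the opposite order. Wnt1 and Wnt3a, the ligands of the dorsal neural tube, were at 0 and 0.140 FPKM against 0.0396 and 0 FPKM and at 0 and 0 FPKM against 0.120 and 0.0379 FPKM. Wnt9b, Wnt16, Wnt8a and Wnt8b did not exceed 0.358 FPKM, the value of Wnt9b in SMG sample 1. Wnt9b and Wnt3a were at 0 in both placode samples, and Wnt8a and Wnt8b in both SMG samples.

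Several ligand genes are neighbours in the genome, with no protein-coding gene between them. Wnt6 and Wnt10a lie 6.2 kb apart on chromosome 1, and both had all SMG values above all placode values. Wnt3 and Wnt9b, 24.3 kb apart on chromosome 11, had opposite orders, with Wnt3 above and Wnt9b below in the placodes. Wnt3a and Wnt9a, 16.2 kb apart on chromosome 11, both had their placode values below those of the SMGs, and for Wnt1 and Wnt10b, 11.7 kb apart on chromosome 15, the Wnt1 values of the groups overlapped.

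The Frizzled receptors, membrane proteins that bind the ligands, were expressed in both groups, and none was listed at 0. Their summed level was lower in the placodes, at 151 and 152 FPKM against 242 and 237 FPKM, a ratio of 0.63 (exact permutation p = 0.333). Of the 10 receptors, 2 were higher in the placodes by 2-fold or more and 5 were lower by as much. Over all tested features the shares were 14.1% and 15.2%. The closely related Fzd1, Fzd2 and Fzd7 held 83.3% and 84.4% of the Frizzled FPKM in the SMGs and 54.4% and 55.1% in the placodes, whereas Fzd3 and Fzd10 held 3.43% and 3.67% in the SMGs and 35.4% and 35.0% in the placodes. These groupings, too, were formed after the values had been seen.

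Fzd3, a receptor of axon guidance and planar cell polarity, was at 35.5 and 36.7 FPKM in the placodes and 5.77 and 5.87 FPKM in the SMGs. Fzd10, known from the dorsal neural tube, was at 18.02 and 16.4 FPKM against 2.53 and 2.84 FPKM. Both stood clear of the SMG samples, with log2 fold changes of 2.44 (SE 0.06, adjusted p = 5.53e-07) for Fzd3 and 2.30 (SE 0.09, adjusted p = 3.22e-06) for Fzd10. In mean FPKM they were 6.20-fold and 6.39-fold higher.

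Fzd6, a receptor of hair and tissue polarity, showed the largest fall among the receptors. It was at 1.34 and 1.298 FPKM in the placodes and 10.6 and 10.8 FPKM in the SMGs, giving a log2 fold change of -2.33 (SE 0.09, adjusted p = 2.77e-06). The polarity receptors Fzd3 and Fzd6 stood in opposite order in the groups. Fzd1 was at 16.2 and 16.4 FPKM against 57.3 and 59.5 FPKM, a log2 fold change of -1.78 (SE 0.05, adjusted p = 8.69e-07). Fzd7, the most abundant receptor of the SMGs, was at 27.7 and 28.3 FPKM against 76.8 and 75.1 FPKM, a log2 fold change of -1.41 (SE 0.05, adjusted p = 1.59e-06). Fzd2, the most abundant receptor of the placodes, was also lower there than in the SMGs, at 38.3 and 39.0 FPKM against 67.6 and 65.7 FPKM, with a log2 fold change of -0.77 (SE 0.05, adjusted p = 1.84e-05). The placode and SMG samples did not overlap for any of these receptors.

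Fzd4, the receptor of Norrin in retinal vessels, was at 1.48 and 1.27 FPKM in the placodes and 7.58 and 6.64 FPKM in the SMGs, giving a log2 fold change of -1.77 (SE 0.11, adjusted p = 2.07e-05). The endothelial markers given above stood in the same order, as did the epithelial, mesenchymal, blood, leukocyte and skeletal muscle sums. The part of any of these cell types in the Fzd4 values was not tested. Fzd5 was at 0.682 and 0.470 FPKM against 2.33 and 2.11 FPKM, with a log2 fold change of -1.03 (adjusted p = 0.000399) that was -0.94 without placode sample 2 and -0.99 without SMG sample 1, just short of 2-fold. Fzd8, its nearest relative, was at 9.36 and 8.97 FPKM against 8.93 and 6.84 FPKM and did not pass (log2 fold change 0.20, 95% confidence interval -0.10 to 0.51, adjusted p = 0.173). Without SMG sample 1, the higher of the SMG values, the Fzd8 log2 fold change was 0.38 with an adjusted p of 0.0269. Fzd9 was at 2.64 and 3.06 FPKM against 2.68 and 1.93 FPKM, the groups overlapped, and the log2 fold change was 0.23 (95% confidence interval -0.12 to 0.58, adjusted p = 0.191).

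**Figure D3:**
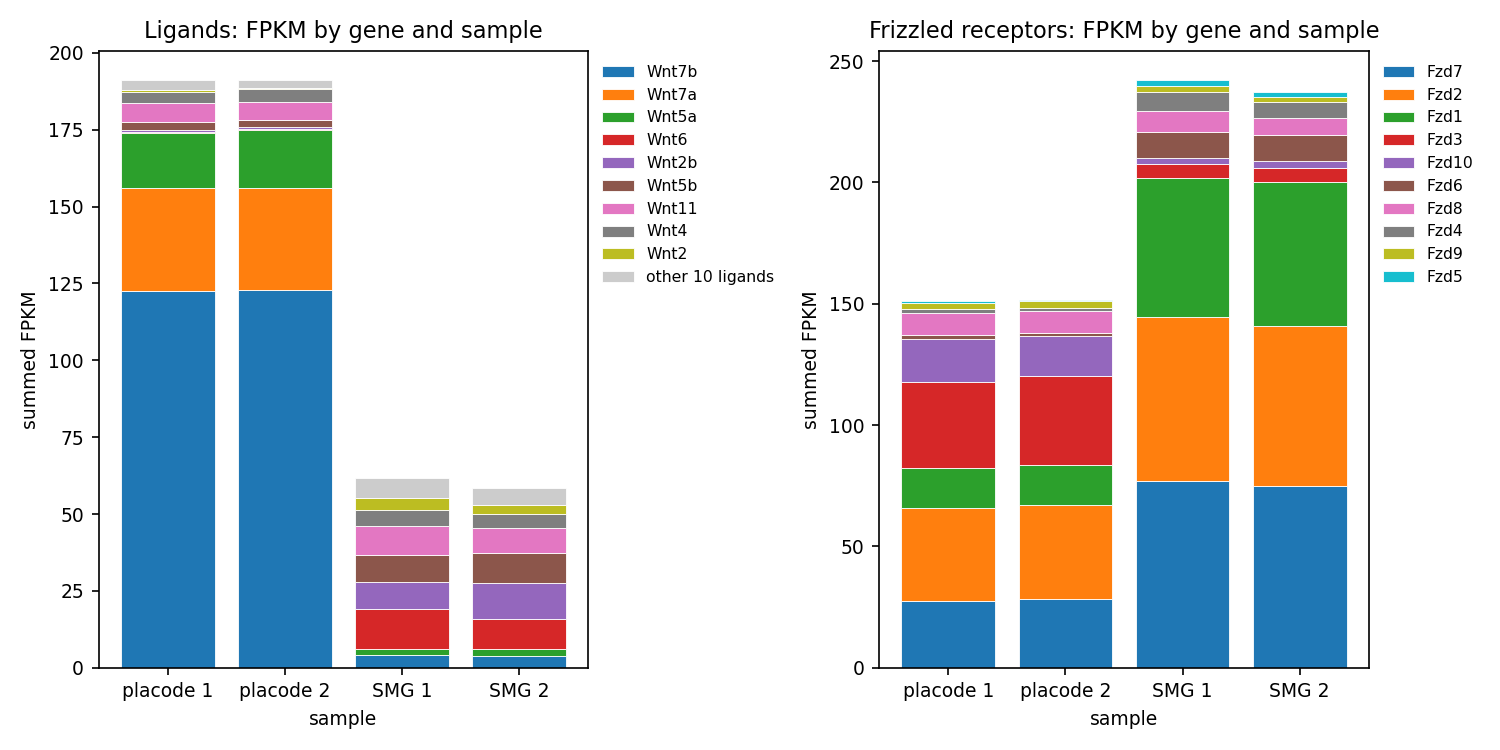
Summed FPKM of the 19 ligands (left) and the 10 Frizzled receptors (right) in each sample, stacked by gene. Wnt7b, Wnt7a and Wnt5a fill most of the placode ligand bars and little of the SMG bars, and the Fzd3 and Fzd10 blocks are large in the placodes while Fzd7, Fzd2 and Fzd1 fill most of the SMG receptor bars.

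The co-receptors and the proteins of receptor turnover were all lower in the placodes. Of the 5, 1 was lower by at least 2-fold, against 15.2% of all tested features. The class summed to 41.4 and 42.2 FPKM in the placodes and 81.5 and 82.4 FPKM in the SMGs (exact permutation p = 0.333). Lrp5 was at 8.70 and 8.86 FPKM against 32.9 and 34.9 FPKM, and Lrp6, which serves the same step, was at 14.7 and 15.9 FPKM against 24.7 and 23.7 FPKM. The order of the pair differed between the groups, since Lrp6 was above Lrp5 in both placode samples and below it in both SMG samples. Their log2 fold changes were -1.83 (SE 0.06, adjusted p = 1.54e-06) for Lrp5 and -0.63 (SE 0.06, adjusted p = 0.000183) for Lrp6. Kremen1, a receptor of Dickkopf proteins that draws Lrp6 off the membrane, was at 15.3 and 14.8 FPKM against 19.0 and 19.3 FPKM (log2 fold change -0.33, adjusted p = 0.00247).

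The paired ubiquitin ligases were at low levels. Rnf43 was at 0.336 and 0.569 FPKM in the placodes and 1.76 and 1.48 FPKM in the SMGs, giving a log2 fold change of -0.85 (SE 0.14, adjusted p = 0.00153), which was -1.66 with a pseudocount of 0.1 in place of 1. Znrf3 was at 2.38 and 2.09 FPKM against 3.04 and 3.04 FPKM, a log2 fold change of -0.32 (adjusted p = 0.0301). The Znrf3 call was lost without placode sample 2, SMG sample 1 or SMG sample 2, at adjusted p-values of 0.112, 0.0848 and 0.0826. All placode values of both ligases were below all SMG values.

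Among the R-spondins and their receptors, Lgr4 dominated in both groups and was higher in the placodes. It was at 79.1 and 82.7 FPKM in the placodes and 19.7 and 18.8 FPKM in the SMGs, giving a log2 fold change of 2.02 (SE 0.05, adjusted p = 6.71e-07). Lgr4 alone made up 88.45% and 89.45% of the class in the placodes and 55.8% and 55.1% in the SMGs, and the class sums were 89.5 and 92.5 FPKM against 35.3 and 34.1 FPKM (exact permutation p = 0.333). Lgr5, a receptor of the same kind and a stem cell marker and Wnt target in many epithelia, stood in the opposite order at 4.80 and 5.31 FPKM against 9.22 and 9.83 FPKM, a log2 fold change of -0.80 (SE 0.09, adjusted p = 0.000265). Lgr6 was at 0.0532 and 0.0991 FPKM against 0.222 and 0.186 FPKM and was not tested.

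The R-spondins themselves were at low levels and differed gene by gene. Rspo1 was at 3.68 and 3.09 FPKM in the placodes and 1.03 and 0.848 FPKM in the SMGs, giving a log2 fold change of 1.18 (SE 0.12, adjusted p = 0.000208). Rspo2, a ligand of limb and lung development, was at 0.0655 and 0.0537 FPKM against 2.98 and 1.64 FPKM. On the log2 scale the SMG samples differed from each other more for Rspo2 than for any other tested gene of the set, but both were far above the placodes, with a log2 fold change of -1.61 (SE 0.20, adjusted p = 0.000493). With a pseudocount of 0.001 the log2 fold change was -5.20, and without SMG sample 1 the mean of Rspo2 was under 1 FPKM and it was not tested. Rspo3, known from vessels and placenta, was at 1.49 and 0.972 FPKM against 1.96 and 2.39 FPKM (log2 fold change -0.52, adjusted p = 0.0217), and the adjusted p was 0.115 without placode sample 2 and 0.120 without SMG sample 2. Rspo4 was at 0.231 and 0.239 FPKM against 0.182 and 0.406 FPKM, was not tested, and its groups overlapped.

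The secreted inhibitors were led by Sfrp2 and Sfrp1 in the SMGs and by Sfrp2, Frzb and Sfrp1 in the placodes. Their summed level was 160 and 166 FPKM in the placodes and 361 and 366 FPKM in the SMGs (exact permutation p = 0.333). All 5 tested members differed by at least 2-fold, 2 higher and 3 lower in the placodes, and the other 5 were not tested. Among all features with both group means at or above 1 FPKM, as in these tested members, 21.9% passed at 2-fold. Frzb, also called Sfrp3, binds ligands through a Frizzled-like domain. It was at 42.2 and 43.5 FPKM in the placodes and 1.01 and 1.63 FPKM in the SMGs, giving a log2 fold change of 4.25 (SE 0.13, adjusted p = 1.18e-06), and its mean FPKM was 32.5-fold higher. Sfrp1 and Sfrp2, relatives of Frzb with the same domain, stood in the opposite order. Sfrp1 was at 36.0 and 36.1 FPKM against 148 and 164 FPKM, a log2 fold change of -2.08 (SE 0.06, adjusted p = 9.25e-07). Sfrp2 was at 61.4 and 66.5 FPKM against 192 and 183 FPKM, a log2 fold change of -1.54 (SE 0.06, adjusted p = 2.65e-06). The mesenchymal markers were lower in the placodes as well, as given above, and their part in these values was not tested.

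The Dickkopf proteins also divided. Dkk2, which binds Lrp5 and Lrp6, was at 3.72 and 3.44 FPKM in the placodes and 14.05 and 12.53 FPKM in the SMGs, giving a log2 fold change of -1.64 (SE 0.09, adjusted p = 1.29e-05). Dkk3, a divergent member of the family, was at 13.8 and 13.8 FPKM against 3.82 and 3.24 FPKM, a log2 fold change of 1.71 (SE 0.09, adjusted p = 1.15e-05). The groups did not overlap for either gene. Dkk1, the best known Lrp6 inhibitor and itself a Wnt target, was at 0.284 and 0.266 FPKM in the placodes and at 0 in both SMG samples, and it was not tested. Wif1 was at 1.10 and 1.39 FPKM against 0.573 and 0.270 FPKM, Sfrp4 at 0.703 and 0.909 FPKM against 0.742 and 0.779 FPKM, and Sfrp5 at 0.669 and 0.156 FPKM against 0.252 and 0.640 FPKM. Of these untested inhibitors, Wif1 had both placode values above both SMG values, and Sfrp4 and Sfrp5 overlapped.

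**Figure D4:**
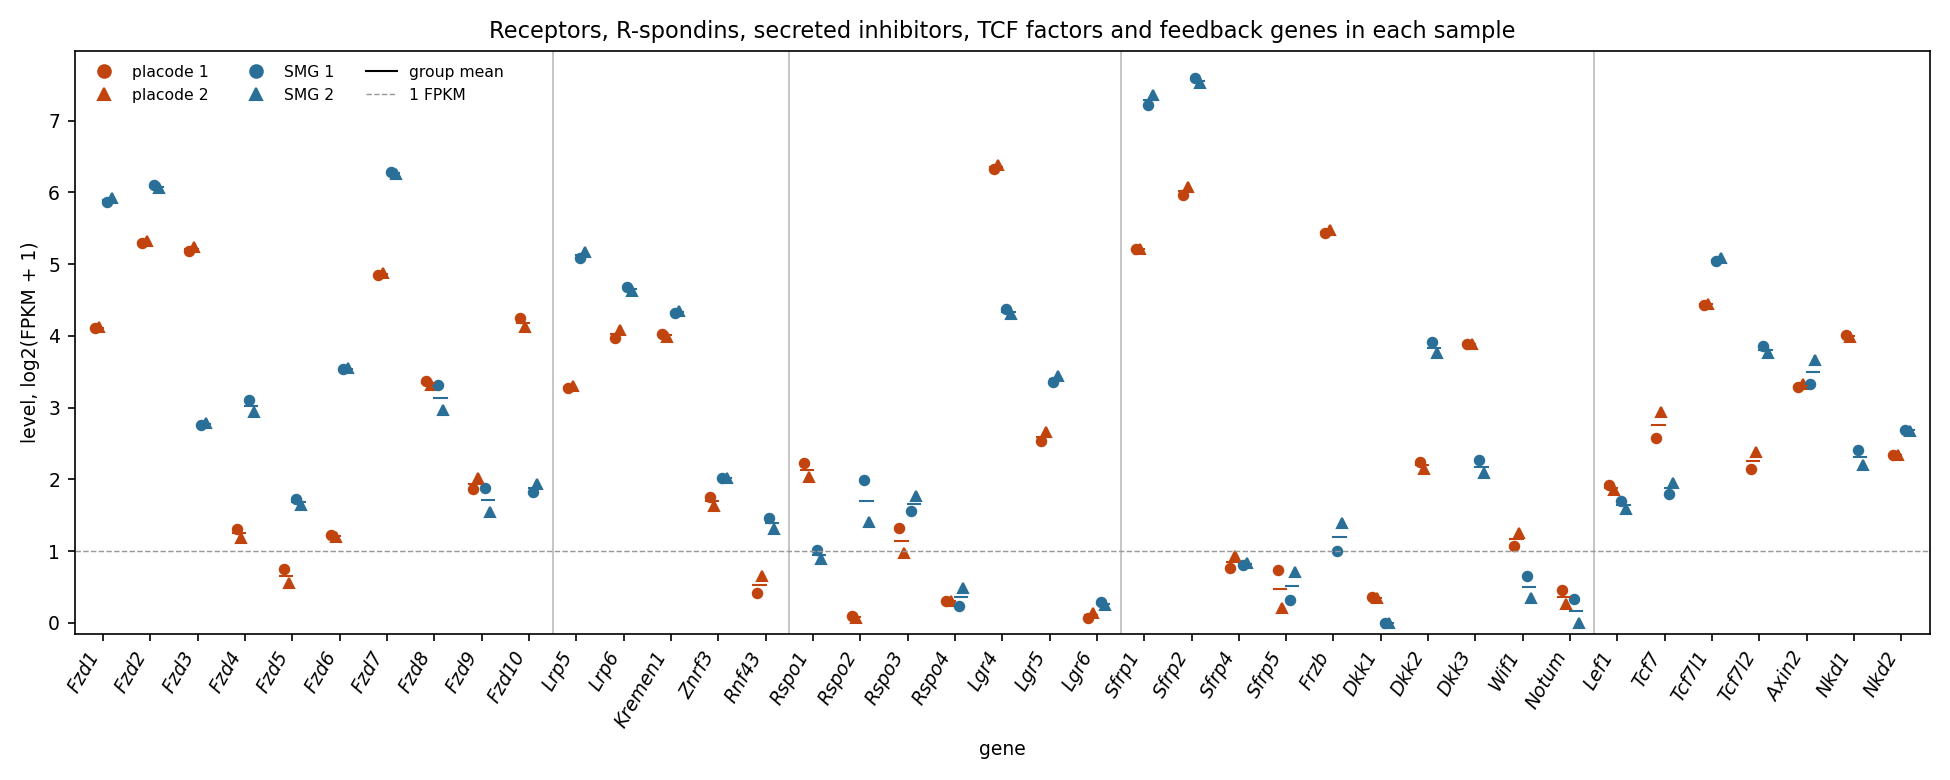
Levels of the other 39 genes as log2(FPKM + 1) in placode samples 1 and 2 and SMG samples 1 and 2, with group means as short bars, 1 FPKM as a dashed line, and vertical lines between the classes. Fzd3, Fzd10, Lgr4, Frzb, Dkk3 and Nkd1 stand higher in both placode samples, Fzd1, Fzd6, Fzd7, Lrp5, Sfrp1, Sfrp2 and Tcf7l2 stand higher in both SMG samples, and the points of Axin2, Lef1 and Fzd8 lie close together.

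The summed levels of the TCF factors and feedback genes were 59.7 and 62.3 FPKM in the placodes. In the SMGs they were 69.1 and 70.9 FPKM (exact permutation p = 0.333). Of the 7, 2 differed by at least 2-fold, against 29.4% of all tested features. Tcf7l1, a TCF factor that acts mainly as a repressor, was the most abundant in both groups at 20.6 and 20.8 FPKM in the placodes and 32.0 and 32.8 FPKM in the SMGs, giving a log2 fold change of -0.62 (SE 0.05, adjusted p = 6.92e-05). Tcf7l2, the main TCF factor of the gut epithelium, was at 3.42 and 4.21 FPKM against 13.5 and 12.51 FPKM, a log2 fold change of -1.55 (SE 0.11, adjusted p = 3.18e-05). Tcf7 was higher in the placodes at 4.94 and 6.69 FPKM against 2.48 and 2.88 FPKM, a log2 fold change of 0.88 (SE 0.15, adjusted p = 0.00187). On the log2 scale its placode samples were the farthest apart of all tested genes in the set. Without placode sample 1 the Tcf7 log2 fold change was 1.06. Lef1 was at 2.79 and 2.60 FPKM against 2.25 and 2.01 FPKM and did not pass (log2 fold change 0.24, 95% confidence interval -0.02 to 0.50, adjusted p = 0.0823).

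The general read-outs of canonical signalling did not move in 1 direction. Axin2, a scaffold of the β-catenin destruction complex and the most widely used target gene, was at 8.73 and 9.06 FPKM in the placodes and 9.07 and 11.6 FPKM in the SMGs. SMG sample 1 lay just above the placode samples and SMG sample 2 further above. The log2 fold change was -0.19 (95% confidence interval -0.48 to 0.10, adjusted p = 0.186), it was -0.35 with an adjusted p of 0.0262 without SMG sample 1, and -0.03 with an adjusted p of 0.809 without SMG sample 2. Nkd1, a target gene whose product binds Dishevelled and dampens the signal, was higher in the placodes at 15.2 and 14.8 FPKM against 4.34 and 3.62 FPKM, a log2 fold change of 1.69 (SE 0.10, adjusted p = 1.34e-05). Its relative Nkd2 was at 4.08 and 4.08 FPKM against 5.47 and 5.42 FPKM, a log2 fold change of -0.34 (adjusted p = 0.0112), with adjusted p-values of 0.0513 and 0.0506 without placode sample 1 or 2. Notum, a target gene whose product removes the lipid from Wnt proteins, was at 0.378 and 0.197 FPKM against 0.264 and 0 FPKM and was not tested. Sp5, a transcription factor gene of the wider pathway list and a direct target in many tissues, was at 1.17 and 1.01 FPKM against 0.962 and 1.06 FPKM, with overlapping groups and a log2 fold change of 0.06 (adjusted p = 0.681). Of the 6 read-outs, Nkd1 was thus higher in the placodes and Lgr5 was lower, Axin2, Lef1 and Sp5 did not pass, and Notum was not tested. The wider list held 9 further direct targets, Sp5 among them, of which 5 were tested. Sp8, described below, was higher. Myc, Ccnd1 and Tnfrsf19 were lower, at log2 fold changes of -1.23, -0.47 and -0.47 (adjusted p = 9.53e-05, 0.000422 and 0.00238). Over all tested features, 35.7% were called higher and 40.4% lower. These 3 genes were added after their values had been seen.

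**Figure D5:**
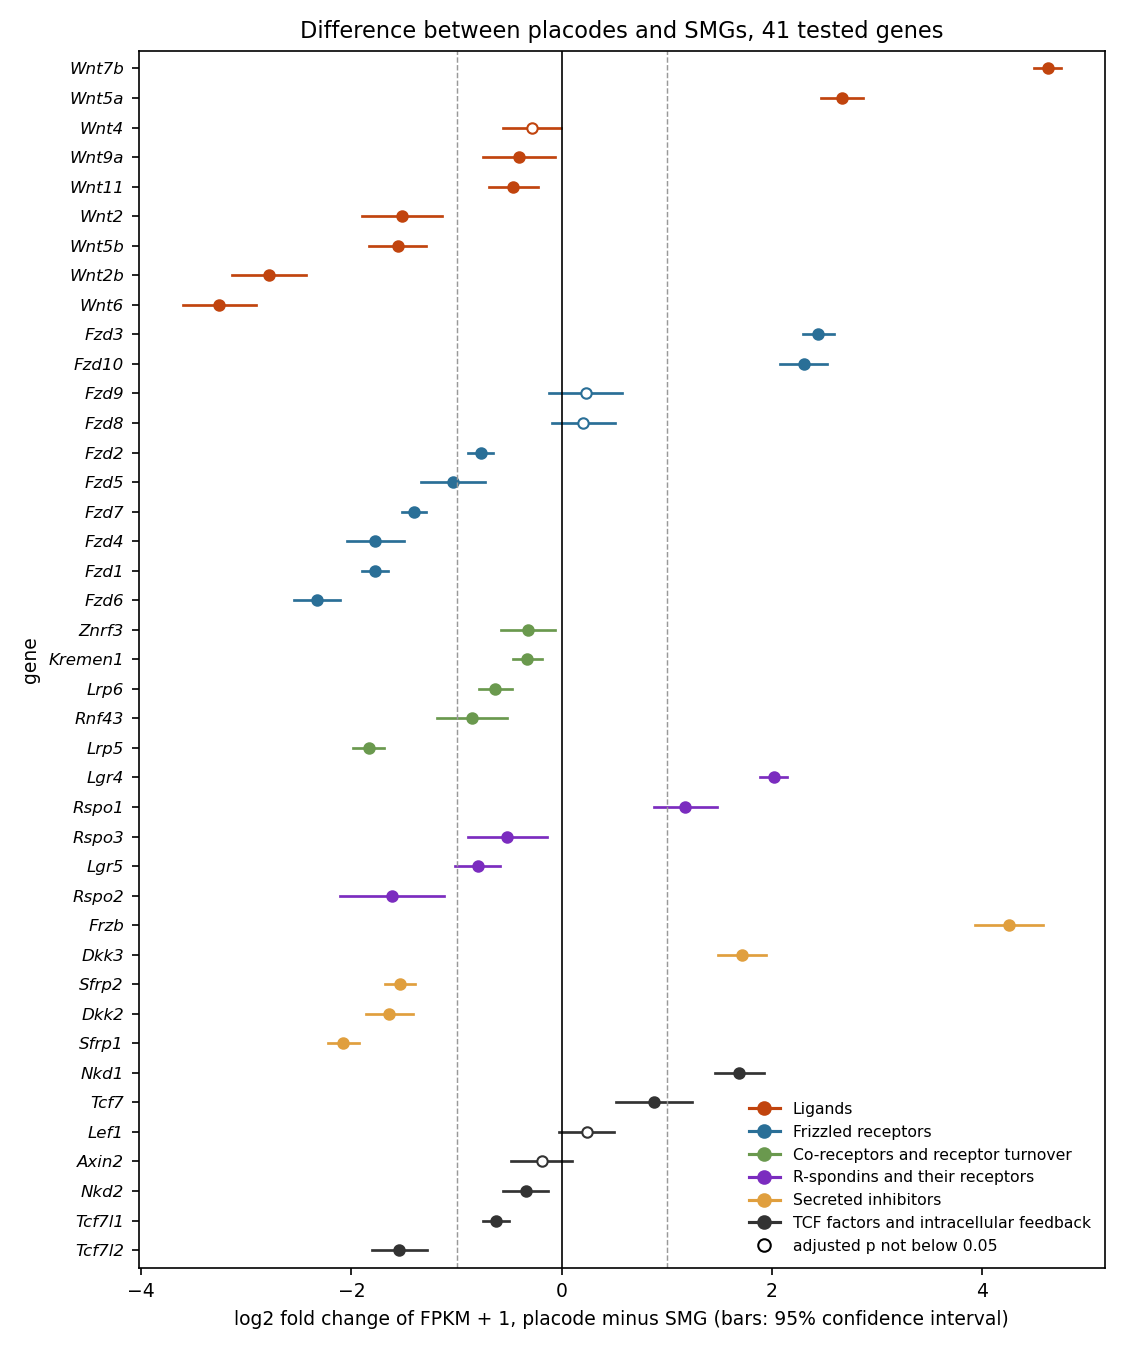
Log2 fold change of FPKM + 1, placode minus SMG (horizontal axis), with its 95% confidence interval for 41 of the 42 tested genes, ordered within each class, with open circles where the adjusted p was not below 0.05, dashed lines at a fold of 2, and Wnt7a left out because it was listed at 0 in the SMGs. Wnt7b at 4.62 and Frzb at 4.25 are the highest values, Wnt6 at -3.26 is the lowest, and every co-receptor and turnover gene lies below 0.

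A list of 60 further pathway genes, sorted by role, covered the steps that the set leaves out. Of these, 53 were tested and 45 passed the adjusted threshold, 18 of them higher and 27 lower in the placodes, with 13 higher and 16 lower by at least 2-fold. Over all tested features the shares were 76.2% called, 35.7% higher and 40.4% lower, and 14.1% and 15.2% at 2-fold. The mean was at least 1 FPKM in the placodes alone for 2 tested genes of the list (Sp8 and Draxin). It was so in the SMGs alone for 3 (Dact2, Kremen2 and Trabd2b). Such genes had to differ to be tested. Among the 48 with both group means at or above 1 FPKM, 24 passed at 2-fold, against 21.9% of features that met this condition. β-catenin itself (Ctnnb1) was at 357 and 372 FPKM in the placodes and 374 and 370 FPKM in the SMGs, with overlapping groups and a log2 fold change of -0.03 (95% confidence interval -0.16 to 0.10, adjusted p = 0.641). Of the 15 genes of the cytoplasmic machinery, 4 were higher and 1 was lower by at least 2-fold, the kinase genes Gsk3b and Csnk1e among the higher ones at log2 fold changes of 1.43 and 1.49. Porcn, whose product attaches the lipid to Wnt proteins, was at 12.47 and 11.3 FPKM against 3.68 and 4.56 FPKM (log2 fold change 1.34, adjusted p = 7.07e-05), whereas Wls, whose product carries them to the cell surface, was at 26.5 and 30.5 FPKM against 41.9 and 36.7 FPKM (log2 fold change -0.45, adjusted p = 0.00435). Ctnnb1, Gsk3b, Csnk1e, Porcn and Wls were singled out after their values had been seen.

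The 5 highest log2 fold changes of that list belonged to a target gene, a member of the destruction complex, an inhibitor and polarity cadherins. Sp8, a zinc finger factor of limb and forebrain development, was at 20.2 and 21.6 FPKM in the placodes and at 0 in both SMG samples (adjusted p = 3.69e-07). Apc2, the relative of Apc enriched in the nervous system, was at 68.0 and 72.7 FPKM against 5.86 and 5.88 FPKM, a log2 fold change of 3.38 (adjusted p = 2.22e-07). Draxin, a repulsive axon guidance protein that also binds Lrp6, was at 8.998 and 9.64 FPKM against 0.458 and 0.324 FPKM, a log2 fold change of 2.89. Celsr2 and Celsr3, cadherins of planar polarity and axon tracts, had log2 fold changes of 3.02 and 2.72, and Celsr1, their relative known from epithelia, was at 1.24 and 1.49 FPKM against 8.42 and 8.05 FPKM, a log2 fold change of -1.97. The neural markers were higher in the placodes as well, as given above, and their part in these values was not tested.

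The 5 lowest belonged to a co-repressor, a Dishevelled-binding protein, a Dickkopf receptor and ligand-binding receptors. Tle2, a Groucho-type co-repressor, was at 0.816 and 1.21 FPKM in the placodes and 34.3 and 34.7 FPKM in the SMGs, giving a log2 fold change of -4.15 (SE 0.11, adjusted p = 6.99e-07). Tle1, of the same family, stood in the opposite order with a log2 fold change of 1.41. Dact2, a Dishevelled-binding protein, was at 0.926 and 0.609 FPKM against 16.7 and 15.9 FPKM, and Kremen2, the second Dickkopf receptor, was at 0.555 and 0.281 FPKM against 8.98 and 6.11 FPKM. Their log2 fold changes were -3.30 and -2.58. Ror1, a receptor tyrosine kinase that binds Wnt5a, was at 2.13 and 2.12 FPKM against 26.7 and 26.6 FPKM (log2 fold change -3.14, adjusted p = 4.59e-07), and Gpc3, a proteoglycan that binds ligands and Frizzled receptors, was at 61.9 and 62.5 FPKM against 452 and 454 FPKM (log2 fold change -2.85, adjusted p = 1.94e-07). Of the 14 genes of alternative receptors and planar polarity in the list, 4 were higher and 6 lower by at least 2-fold. Over all tested features the shares were 14.1% and 15.2%. Ror2, which with Ror1 receives Wnt5a, was at 8.22 and 8.04 FPKM against 19.8 and 20.7 FPKM, a log2 fold change of -1.22 (adjusted p = 1.05e-05). Reck and Adgra2, which receive Wnt7a and Wnt7b in brain vessels, were at 4.79 and 4.79 FPKM against 32.7 and 33.1 FPKM and at 6.72 and 6.98 FPKM against 41.0 and 41.7 FPKM, with log2 fold changes of -2.55 and -2.43. The endothelial and mesenchymal markers were lower in the placodes too, and their part in these values was not tested. Celsr1, Tle1, Ror2, Reck and Adgra2 were singled out after their values had been seen.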

How the data were processed

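Total RNA of E12.5 SMGs and of day 10 PSC-derived SG placodes (2 samples each, grouped by their labels) was sequenced paired-end. The authors mapped reads with HISAT2 (version not given in the sources used here) and deposited FPKM per feature. The submitters' processing notes name GRCh38 and GRCm38, and all 58 mouse gene identifiers were found in GENCODE M21 of GRCm38 with the same symbol. Coordinates, transcripts and coding sequences come from that annotation, and promoters from RefSeq (GRCm38.p6). Read counts could not be recovered, so depth is unknown.

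FPKM values were transformed as log2(FPKM + 1), and the 13193 features with a mean FPKM of at least 1 (479 of them unnamed assembled loci) entered a linear model of group in limma 3.58.1 under R 4.3.3 (lmFit and eBayes with trend, two-sided, Benjamini-Hochberg over all). A call is an adjusted p below 0.05, and 2-fold is a log2 fold change of 1 or more in size. The procedure was tested on simulated data. Class sums were compared with exact permutation tests (scipy 1.17.1). The members and lists were chosen with earlier results of these data known. Full values are given for the 3 highest and 3 lowest log2 fold changes among called, non-overlapping genes of each class, the most abundant gene per group, 6 read-outs, neighbouring ligand genes, and the 5 highest and 5 lowest of the further list. Alternatives changed the pseudocount, the minimum level, the scaling, the eBayes settings, the replicate block or left out 1 sample.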

Additional observations from a re-analysis of the deposited data

How the results depend on the processing

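Over 14 alternatives, no tested Wnt gene changed direction, and 24 of the 25 genes called at 2-fold kept that call under every alternative that tested them, Fzd5 being the exception (-0.99 with quantile normalization, -0.94 without placode sample 2 and -0.99 without SMG sample 1). Of the values of single genes, 697 kept their side of the threshold, 20 lost the call and 5 gained it. Wnt9a, Znrf3, Rspo3, Nkd2 and Wnt11 lost calls, and Lef1, Wnt4, Fzd8 and Axin2 gained them. With a pseudocount of 0.1 or 0.001 or with TPM (FPKM rescaled to an equal sum), 2 co-receptor and turnover genes were 2-fold lower in place of 1 (Rnf43 added) and 2 TCF and feedback genes 2-fold higher in place of 1 (Tcf7 added). Under a minimum mean of 5 FPKM, which left 28 Wnt genes, 2475 features in place of 3877 were called at 2-fold, 17 Wnt genes in place of 26 were lower, 3 Frizzled genes were 2-fold lower, and of the R-spondin class 1 was 2-fold higher and 0 lower. The log2 ratios of the class sums were, under TPM and median-ratio scaling, 1.73 and 1.72 for ligands (main value 1.67), -0.60 and -0.61 for Frizzled receptors (-0.66), -0.91 and -0.91 for co-receptors and turnover (-0.97), 1.45 and 1.45 for R-spondins and receptors (1.39), -1.09 and -1.10 for inhibitors (-1.15) and -0.14 and -0.14 for TCF and feedback genes (-0.20). Leaving out each sample in turn gave 1.63 to 1.71 for the ligand sum, 0 to 1 R-spondin class genes 2-fold lower, 1 to 2 TCF and feedback genes 2-fold higher, and 23 to 27 Wnt genes at 2-fold, where a group left with 1 sample is assumed to vary like the other. Other counts changed as well. TPM values are higher than FPKM against the same pseudocount and minimum of 1, and 47 Wnt genes in place of 42 were tested. Under TPM, 29 Wnt genes in place of 25 were called at 2-fold, and 3 inhibitors in place of 2 were 2-fold higher. Without a minimum level, 41 Wnt genes in place of 37 were called. With quantile normalization, 4 Frizzled genes in place of 5 were 2-fold lower. Without a minimum level 58.1% of 20464 features were called, and the median log2 fold change of all features stayed between -0.08 and 0.01 across settings. The cause of these changes was not tested.

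Deviations from the group means of the samples numbered 1 correlated at -0.03 between the groups over 13193 features. With 2 samples per group, this cannot decide whether samples of the same number were paired. With the replicate block 10043 features in place of 10049 were called, with 37 Wnt genes called and 25 at 2-fold, as without it. Depth is unknown, so differences among genes near 0 FPKM could not be weighed against counting error.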

Other observations

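Promoters of 39 of the 58 genes were given by RefSeq (GRCm38.p6), and the 250 bases before the transcript start were searched on both strands for CTTTGAA or CTTTGAT, the core letters of TCF and LEF sites. A match was found in 3 genes, 7.69% of the 39, and in 8.63% of 27025 genes. The windows are shown because they belong to a secreted inhibitor and to ligands, with the matched letters in capitals, as read on the strand of the gene. The Dkk1 window overlaps an exon of the gene in GENCODE M21, and the Wnt11 match is on the other strand.
Dkk1, chr19:30549596-30549624, minus strand: tcctcccaaagCTTTGAAatcccatcccg
Wnt11, chr7:98835050-98835078, plus strand: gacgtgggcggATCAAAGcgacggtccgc
Wnt5b, chr6:119449440-119449468, minus strand: agtaagtctctCTTTGATctgctccctgt
A match is a description of these letters and not evidence of binding. Wnt5b and Wnt11 were lower in the placodes, and Dkk1 was not tested.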
